A study of Mus musculus with 12 samples.

Results

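Abcb1a, Abcb1b, Abcg2, Abcc1, Abcc3, Abcc4 and Abcc5 encode efflux pumps of the ATP-binding cassette (ABC) family, which carry drugs and natural solutes out of cells. They are 7 of the 19938 mouse genes read on the arrays, chosen by name from a list drawn up with earlier results of these data known. Where a gene had several probe sets, its probe set was selected on the highest mean over the 12 arrays, but each of these 7 genes had 1 probe set mapped to its symbol alone. Their levels and differences across the 4 groups of cells are given below.

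Gene expression was measured on 12 whole-transcript arrays, 3 in each group. ESC is the established mouse embryonic stem cell line V6.5, with no CD47 change given, grown with 15% serum and 1000 IU/ml of LIF, a cytokine that keeps mouse stem cells undifferentiated. The null_EB group holds embryoid bodies, rounded cell aggregates, that formed within 24 to 36 h in basal medium without serum, from CD47 null lung endothelial cultures that had been kept for 6 months. The null_EC group holds CD47 null lung endothelial cells of C57Bl/6 mice in endothelial growth medium, and WT_EC holds wild-type C57Bl/6 lung endothelial cells in the same medium. CD47 is a cell surface receptor for thrombospondin-1, and both null groups lack it by label. Ages are not stated, and the labels do not say whether the 3 arrays of a group came from separate cultures or animals, so p-values measure the spread between these samples, which may be technical. Medium, serum and growth form changed along with cell type, and their effects cannot be told apart. Time in culture is given for null_EB alone, so null_EC need not be the cultures that formed the bodies. In cultures of mixed cells, fewer cells of a type and less RNA per cell cannot be told apart either.

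An ABC pump binds its cargo from the cytoplasm or the inner membrane leaflet and uses ATP to move it out of the cell. P-glycoprotein, encoded in mice by Abcb1a and Abcb1b and in humans by a single gene, expels many uncharged or cationic drugs and guards the brain from the side of the capillary endothelium. Abcg2 makes the breast cancer resistance protein, whose export of a DNA dye marks the side population found among many stem cells. The ABCC proteins, also called multidrug resistance-associated proteins, carry organic anions such as glutathione and glucuronide conjugates, leukotrienes and cyclic nucleotides.

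Values are log2 signals, in which a difference of 1 is a 2-fold change, and each gene is compared only with itself, because binding differs from probe set to probe set. Means are given ± SD (n = 3 arrays), and differences carry standard errors (SE) from limma. A gene is called when its p-value, adjusted over all 19938 genes, is below 0.05. The median of all tested values was 8.01, and levels below it in both groups of a comparison are described as low signal. Across probe sets, arrays within ESC, null_EB and null_EC correlated at 0.994 to 0.997, and arrays within WT_EC at 0.954 to 0.968. Across genes the SD had a median of 0.0652 to 0.0847 in those 3 groups and 0.213 in WT_EC. All groups share 1 estimate of error, so spread between WT_EC arrays widened the intervals of comparisons that do not involve them. Cd47 was 11.03 ± 0.067 in null_EC, against 12.59, 11.29 and 12.48 in WT_EC (log2 -1.09, adjusted p = 0.0228). It was 11.17 ± 0.19 in ESC, for which no CD47 change is given, and ESC did not differ beyond its spread from null_EC (log2 0.14, adjusted p = 0.691) or from null_EB (log2 0.24, adjusted p = 0.499). The ESC arrays overlapped those of both null groups, and the files do not say which exons its probe set covers. Of 18 endothelial markers, Kdr was high in null_EC (10.70 in mean) and below 8.01 on all null_EB arrays, while Cdh5, Pecam1, Esam, Erg, Tie1 and Emcn were below 8.01 on every null_EC array. Flt1 and Egfl7 were above 8.01 on every null_EC and null_EB array, with Flt1 at 8.46 in null_EC and 9.03 in null_EB in mean. Pecam1, Erg, Tie1 and Emcn were below 8.01 on every WT_EC array too, where Cdh5 stood at 9.10, 6.85 and 9.52. Of 9 mesothelial markers, 5 (Msln, Upk3b, Wt1, Lrrn4 and Upk1b) were above 10 on every null_EB, null_EC and WT_EC array. Krt8, Krt18, Krt19 and Muc16 were not, and the keratin Krt18 was highest in ESC, at 11.34 in ESC, against 7.34 in null_EB, 7.31 in null_EC and 8.74 in WT_EC. The endothelial label therefore rests on part of the marker list, and null_EC, null_EB and WT_EC are names from the labels. All 12 pluripotency markers were called higher in ESC than in each other group.

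**Figure D1:**
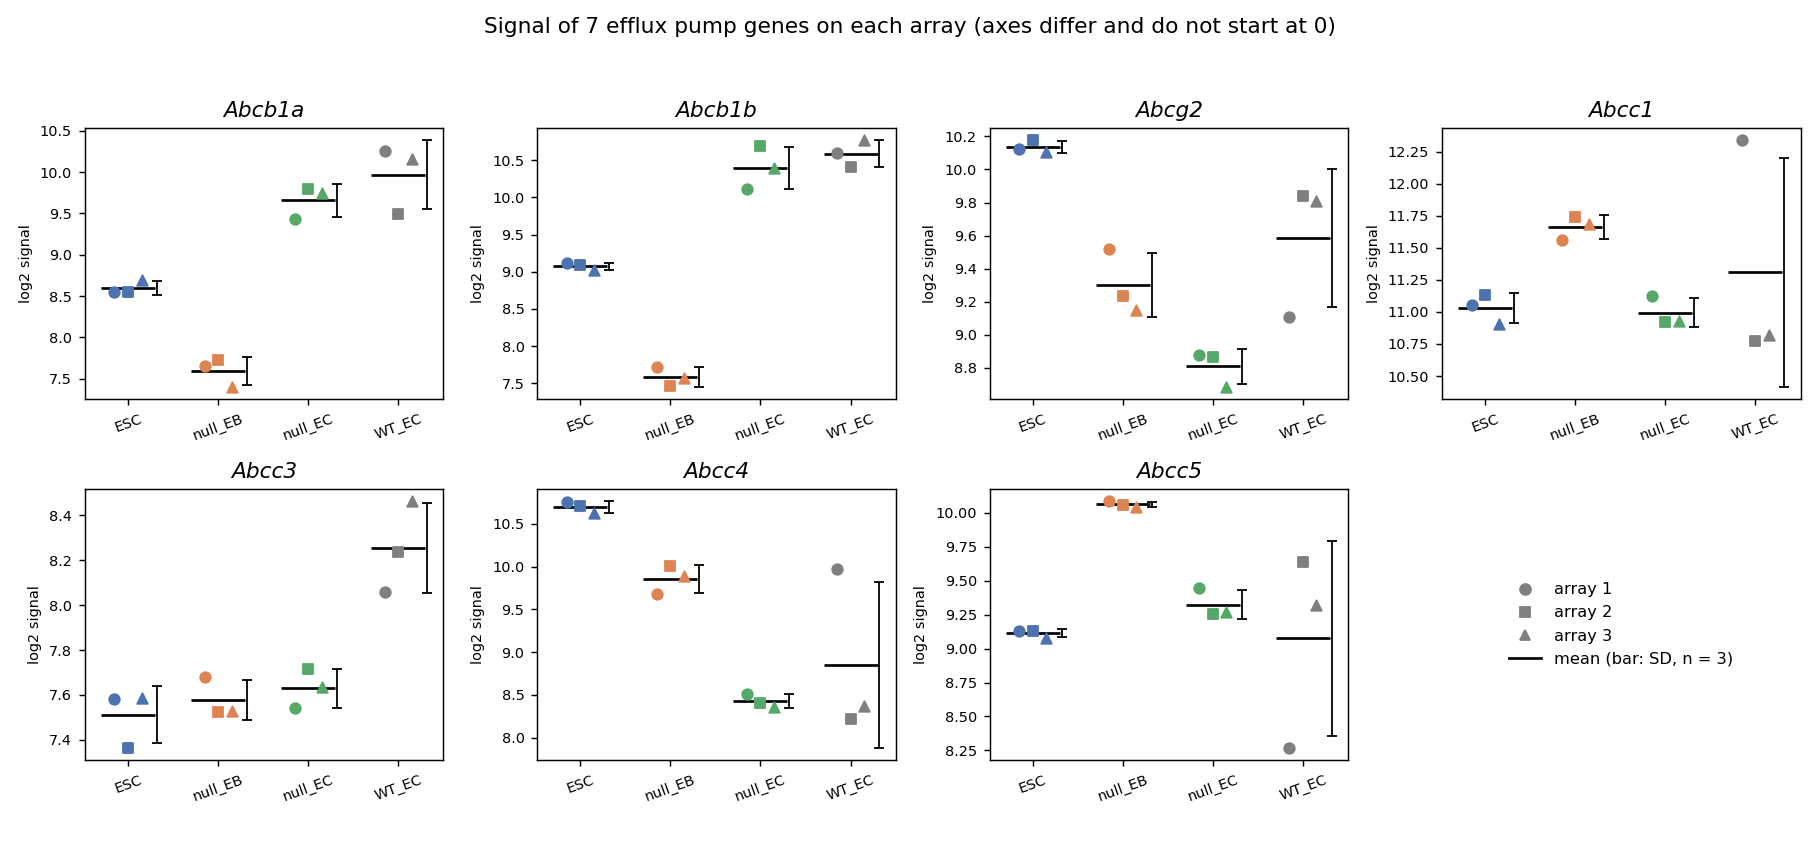
log2 signal (vertical axes, differing between panels and not starting at 0) of the 7 pump genes on the arrays of ESC, null_EB, null_EC and WT_EC; symbols are arrays 1, 2 and 3, horizontal bars are means and error bars are SD (n = 3). Abcb1a and Abcb1b are lowest in null_EB, Abcg2 and Abcc4 are highest in ESC, and WT_EC 1 stands apart from the other WT_EC arrays for Abcc1, Abcc4 and Abcc5.

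The P-glycoprotein genes were the pumps that differed most between embryoid bodies and the CD47 null endothelial cells of null_EC. Abcb1b was 7.72, 7.46 and 7.57 on the null_EB arrays, against 10.12, 10.69 and 10.39 on the null_EC arrays. Abcb1a was 7.66, 7.73 and 7.40 on the null_EB arrays, against 9.43, 9.80 and 9.75 on the null_EC arrays. For both genes every null_EB array lay far below every null_EC array, and the null_EB levels were below the median of all values. Abcb1b fell 7.03-fold (log2 -2.81, SE 0.140, adjusted p = 4.9e-06) and Abcb1a fell 4.18-fold (log2 -2.06, SE 0.185, adjusted p = 0.000184). These directions and calls held in all alternatives tried, with log2 differences from -2.95 to -2.63 for Abcb1b and from -2.18 to -1.88 for Abcb1a.

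Both genes stood at intermediate levels in embryonic stem cells. In ESC, Abcb1b was 9.12, 9.08 and 9.03 and Abcb1a was 8.54, 8.55 and 8.70, which no array of another group overlapped. Against null_EB, ESC was 2.81-fold higher in Abcb1b (log2 1.49, SE 0.140, adjusted p = 6.11e-06) and 2.00-fold higher in Abcb1a (log2 1.00, SE 0.185, adjusted p = 0.00099). Against null_EC, ESC was 2.50-fold lower in Abcb1b (adjusted p = 1.42e-05) and 2.09-fold lower in Abcb1a (adjusted p = 0.000613). The endothelial groups themselves overlapped. On the WT_EC arrays Abcb1b was 10.59, 10.41 and 10.77 and Abcb1a was 10.26, 9.49 and 10.16. The difference of null_EC from WT_EC was -0.19 for Abcb1b (95% interval -0.50 to 0.12, adjusted p = 0.444) and -0.31 for Abcb1a (95% interval -0.72 to 0.10, adjusted p = 0.331). Without WT_EC 2, the lowest of the WT_EC arrays, Abcb1a was called lower in null_EC (log2 -0.55, adjusted p = 0.00964). The order of both genes from low to high was therefore null_EB, ESC and then the endothelial groups, which did not differ beyond their spread.

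Abcb1a and Abcb1b lie next to each other on chromosome 5 and are close copies, and their 12 values ran together (Pearson r = 0.981 over 12 arrays that share the group structure). The sequences of the probes are not in the files, so how far either probe set also reads the transcript of the other gene was not tested. Their neighbour Abcb4, the phospholipid exporter of liver bile and another close relative, had low signal throughout, from 6.32 to 6.61 over the 12 arrays, and was called in none of the 6 comparisons. Other genes whose 12 values were most like Abcb1a were Plod1, an enzyme of collagen modification (r = 0.969), and Tspan9 (r = 0.961), and those most like Abcb1b were the stress gene Gadd45b (r = 0.957) and Plod1 (r = 0.951).

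**Figure D2:**
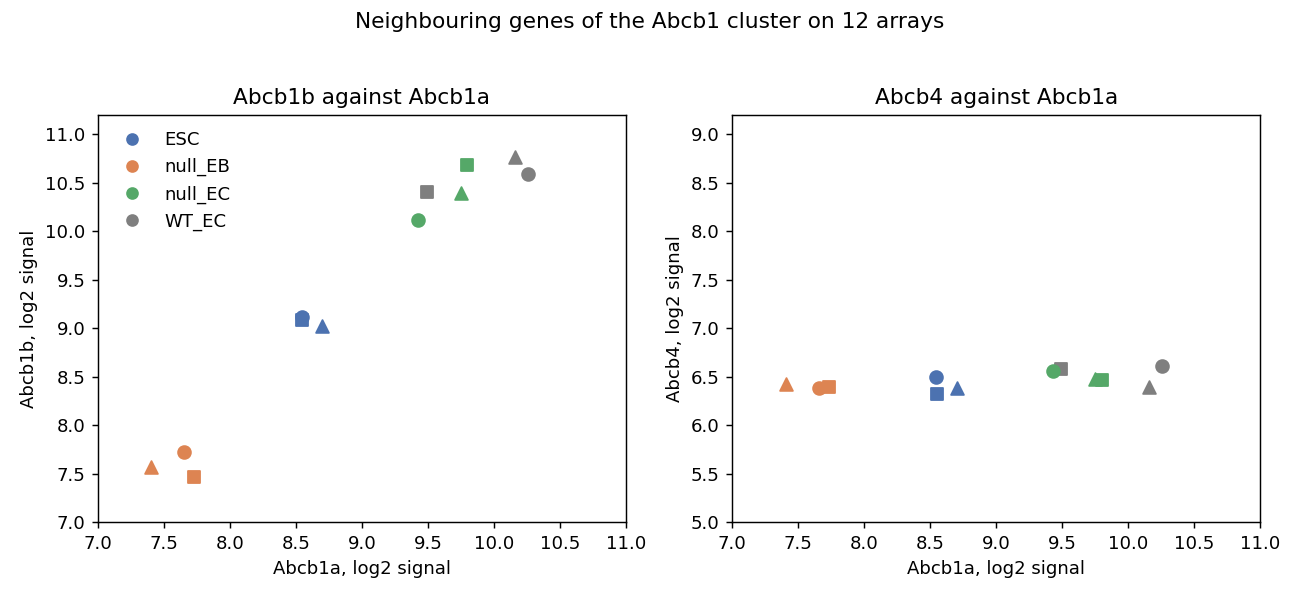
log2 signal of Abcb1b (left) and Abcb4 (right) on the vertical axes against that of Abcb1a on the horizontal axes, with 1 point for each of the 12 arrays, coloured by group; circles, squares and triangles are arrays 1, 2 and 3. Abcb1a and Abcb1b run together over the groups (r = 0.981), whereas Abcb4 stays between 6.32 and 6.61.

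Stretches before listed starts of these genes are shown because the copies moved together in expression while the windows printed here differ. That of Abcc4 is shown because its expression moved the other way between null_EB and null_EC. The stretches come from RefSeq (GRCm38.p6), which gave 1 or more starts for 5 of the 7 pumps. Each shows the 250 bases before the start, 5′ to 3′ along the gene. Capitals mark matches on either strand to CCAAT (the CCAAT box), GGGCGG (the GC box), TATAAA (the TATA box), CACGTG (the E-box bound by Myc and related factors), TGANTCA (the AP-1 site) and TGACNNNGC (the core of the antioxidant response element). The window of Abcb1a is chr5:8566841-8567090 on the plus strand, that of Abcb1b chr5:8797897-8798146 on the plus strand, and that of the first start of Abcc4 chr14:118706220-118706469 on the minus strand.
Abcb1a: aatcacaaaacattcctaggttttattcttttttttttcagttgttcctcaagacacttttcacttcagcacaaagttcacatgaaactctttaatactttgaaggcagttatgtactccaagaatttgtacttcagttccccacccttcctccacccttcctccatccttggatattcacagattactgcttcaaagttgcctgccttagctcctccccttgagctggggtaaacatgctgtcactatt
Abcb1b: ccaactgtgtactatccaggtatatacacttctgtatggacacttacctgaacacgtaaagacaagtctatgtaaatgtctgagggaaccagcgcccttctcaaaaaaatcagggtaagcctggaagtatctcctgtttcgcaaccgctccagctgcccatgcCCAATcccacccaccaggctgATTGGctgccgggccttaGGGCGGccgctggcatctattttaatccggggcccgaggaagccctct
Abcc4: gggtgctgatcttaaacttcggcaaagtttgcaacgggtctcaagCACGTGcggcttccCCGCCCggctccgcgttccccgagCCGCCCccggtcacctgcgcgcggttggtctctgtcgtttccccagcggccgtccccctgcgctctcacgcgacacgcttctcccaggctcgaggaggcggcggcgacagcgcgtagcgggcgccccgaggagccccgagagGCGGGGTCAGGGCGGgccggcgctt

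The Abcb1a window had 40.4% G and C, 0 CpG and no match to the 6 motifs. The Abcb1b window had 52.8% G and C, 9 CpG, 2 CCAAT boxes on opposite strands and 1 GC box between the second of these and the start. Among all 32841 windows of this length the median was 52.4% G and C and 6 CpG, 33.9% held a CCAAT box and 32.7% a GC box. The Abcc4 window was richer in both, with 72% G and C and 35 CpG, and held 3 GC boxes, an E-box and an antioxidant response element core on the other strand, directly before the last GC box. The window of the second Abcc4 start in the same table differed, with 47.6% G and C, 4 CpG, no GC box, no E-box and 1 antioxidant response element core. An E-box was found in 6.02% of all windows and an antioxidant response element core in 10.2%. These matches are descriptions of letters in a window and show nothing about which factors were bound. Which starts the cells used was not tested, so a window need not be the promoter in use.

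Abcg2 was highest in embryonic stem cells and lowest in null_EC. Its signals were 10.13, 10.18 and 10.11 on the ESC arrays, 9.52, 9.23 and 9.15 on the null_EB arrays, 8.87, 8.87 and 8.68 on the null_EC arrays, and 9.11, 9.84 and 9.81 on the WT_EC arrays. Every ESC array was above every array of the other groups, and null_EB arrays lay above null_EC arrays without overlap. ESC was 2.51-fold higher than null_EC (log2 1.33, SE 0.175, adjusted p = 7.78e-05) and 1.79-fold higher than null_EB (log2 0.84, adjusted p = 0.00229). With the housekeeping shift the difference of ESC from null_EB was smaller (log2 0.46, adjusted p = 0.0206). Against WT_EC the ESC level was 1.47-fold higher (log2 0.55, adjusted p = 0.0235), a call that was lost on leaving out any ESC array (adjusted p from 0.0524 to 0.0661), in a fit of the 6 arrays of both groups (adjusted p = 0.0922), with array weights (adjusted p = 0.0733) and with the housekeeping shift (adjusted p = 0.0978). The log2 difference was 0.31 without WT_EC 1.

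In null_EC, Abcg2 was 1.71-fold lower than in WT_EC (8.81 ± 0.11 against 9.59 ± 0.42, log2 -0.78, SE 0.175, adjusted p = 0.0142). The groups did not overlap, but the lowest WT_EC array was 0.23 above the highest null_EC array on the log2 scale. In a fit of only these 6 arrays it did not pass (adjusted p = 0.134), nor did it without null_EC 3 (adjusted p = 0.0638). The difference of null_EB from null_EC was 0.49 (95% interval 0.11 to 0.88), which did not pass (adjusted p = 0.152) in the fit of all arrays. It passed without WT_EC 1 (adjusted p = 0.00688), without any WT_EC array (adjusted p = 0.00116), with the 6 arrays of both groups alone (adjusted p = 0.00335), with array weights and with the housekeeping shift (adjusted p = 0.0209). In the fit of all arrays, null_EB and WT_EC, neighbours in its order, did not differ beyond their spread (log2 -0.29, 95% interval -0.67 to 0.10). Without WT_EC 1, Abcg2 was called lower in null_EB than in WT_EC (log2 -0.52, adjusted p = 0.00505). The genes most like it over the 12 arrays were Vps36 (r = 0.964), the thioredoxin-binding gene Txnip (r = 0.963) and the receptor gene Lpar6 (r = 0.960).

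Abcc4, which exports cyclic nucleotides and prostaglandins, was highest in ESC and next highest in embryoid bodies. It stood at 10.75, 10.71 and 10.62 in ESC, at 9.68, 10.01 and 9.88 in null_EB, at 8.51, 8.40 and 8.36 in null_EC, and at 9.97, 8.21 and 8.37 in WT_EC. ESC, null_EB and null_EC fell in separate ranges, and WT_EC 1 sat among the null_EB arrays while WT_EC 2 and WT_EC 3 sat within or below the null_EC range. ESC was 4.83-fold higher than null_EC (log2 2.27, SE 0.354, adjusted p = 0.000275) and 3.59-fold higher than WT_EC (log2 1.84, adjusted p = 0.00129). Both calls held in every alternative, and the second difference became 2.40 on the log2 scale without WT_EC 1. The rise of null_EB over null_EC was 2.70-fold (9.86 ± 0.16 against 8.42 ± 0.080, log2 1.43, SE 0.354, adjusted p = 0.0420). That call was lost on leaving out any array of ESC, null_EB or null_EC (adjusted p from 0.0669 to 0.162) and with the replicate block (adjusted p = 0.0590), but the adjusted p was 1.19e-05 without WT_EC 1 and 6.44e-08 in a fit of the 9 arrays without WT_EC, a fit added after the data were seen. Abcc4 in ESC differed from null_EB by 0.84 (adjusted p = 0.0764, and 1.79e-05 without WT_EC 1). With the housekeeping shift this difference was 0.46 (adjusted p = 0.261). The difference of null_EB from WT_EC was 1.01 (adjusted p = 0.0748). Without WT_EC 1, null_EB minus WT_EC was 1.56 (adjusted p = 7.86e-06).

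Abcc1 exports leukotriene C4 and glutathione conjugates. It read 11.05, 11.13 and 10.90 in ESC, 11.56, 11.74 and 11.69 in null_EB, 11.13, 10.93 and 10.93 in null_EC, and 12.34, 10.77 and 10.82 in WT_EC. The null_EB arrays lay above all ESC and null_EC arrays, and WT_EC 1 lay above every other array. No comparison of Abcc1 passed in the fit of all arrays, and the difference of null_EB from null_EC was 0.67 (SE 0.326, 95% interval -0.052 to 1.39, adjusted p = 0.334). Without WT_EC 1 the same difference had an adjusted p of 0.000616 and that of ESC from null_EB, -0.63, an adjusted p of 8.07e-05. Both also passed with the 6 arrays of their groups alone (adjusted p = 0.000102 and 3.61e-05) and with array weights (adjusted p = 7.35e-06 and 2.91e-06). They stayed uncalled in 17 and 16 of 21 alternatives. Without WT_EC 1 null_EB was also called higher than WT_EC (log2 0.87, adjusted p = 0.000146, against 0.35 and 0.525 with it). Its closest match over the 12 arrays was Smox, which oxidises spermine (r = 0.988), followed by Syt17 (r = 0.959) and Blcap (r = 0.957).

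Abcc5, another exporter of cyclic nucleotides, was highest in embryoid bodies. Its signals were 9.13, 9.13 and 9.08 in ESC, 10.08, 10.06 and 10.04 in null_EB, 9.45, 9.25 and 9.27 in null_EC, and 8.27, 9.64 and 9.32 in WT_EC. All null_EB arrays were above all others, and here WT_EC 1 was the lowest array of the 12. ESC was 1.93-fold lower than null_EB (9.11 ± 0.028 against 10.06 ± 0.022, log2 -0.95, SE 0.261, adjusted p = 0.0120), a call kept in every alternative. The level in null_EB was 1.98-fold higher than in WT_EC (log2 0.98, adjusted p = 0.0246). A fit of only these 6 arrays did not call it (adjusted p = 0.176), nor did a fit without any 1 of the null_EB arrays (adjusted p from 0.0709 to 0.0758), and the difference was 0.58 without WT_EC 1. Against null_EC the difference was 0.74 (95% interval 0.16 to 1.31) and did not pass (adjusted p = 0.152), but it passed without WT_EC 1 (adjusted p = 0.000416) or WT_EC 2 (adjusted p = 0.0429). ESC, null_EC and WT_EC did not differ from each other beyond their spread in the fit of all arrays, although ESC passed as lower than null_EC with their 6 arrays alone (log2 -0.21, adjusted p = 0.0190). Without WT_EC 1, ESC was lower than WT_EC (log2 -0.37, adjusted p = 0.00862). Genes most like Abcc5 were Rbm5 (r = 0.978), Nck2 (r = 0.975) and Ambra1 (r = 0.970), and those most like Abcc4 were Brsk1 (r = 0.976), Pcid2 (r = 0.973) and Prdm4 (r = 0.961).

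**Figure D3:**
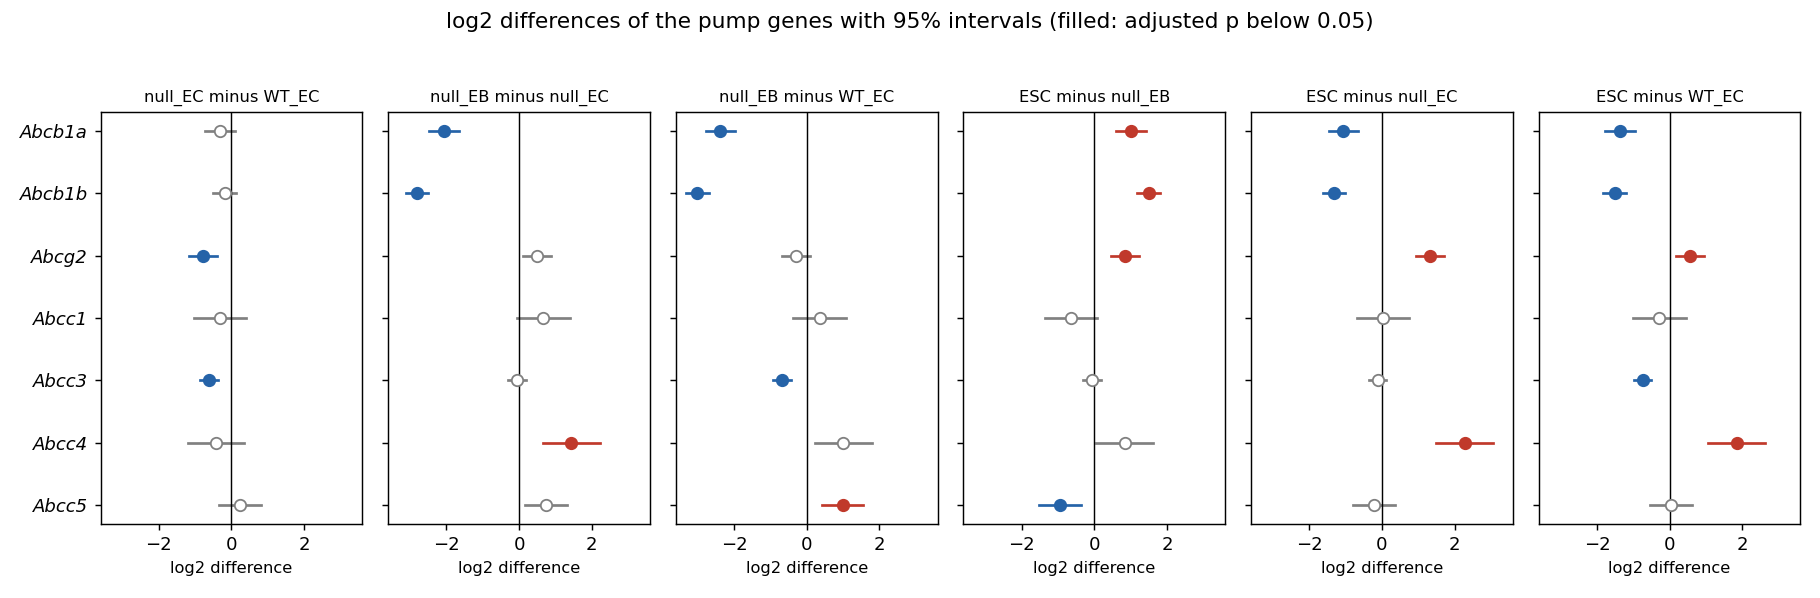
log2 differences (horizontal axes) of the 7 pump genes in the 6 comparisons, with 95% intervals from the fit of all 12 arrays; filled points passed at an adjusted p below 0.05, red higher and blue lower, and open grey points did not pass. The intervals of Abcc1, Abcc4 and Abcc5, whose WT_EC arrays spread most, are wider than those of Abcb1b and Abcc3.

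WT_EC 1 stood apart from the other WT_EC arrays by 1.52 in Abcc1, 1.60 in Abcc4 and -1.05 in Abcc5 on the log2 scale, distances that 1.01%, 0.883% and 2.93% of all genes reached in either direction. The same array stood apart in targets of NRF2, the transcription factor that answers oxidants and electrophiles and is known in mice to raise several Abcc genes. Slc7a11, the cystine importer for glutathione synthesis, was 12.04 on WT_EC 1, against 9.81 on WT_EC 2 and 7.87 on WT_EC 3. Hmox1, which degrades haem, was 13.00 there, against 10.23 and 10.94, and the quinone reductase Nqo1 was 9.36, against 7.78 and 7.06. Of 20 measured NRF2 targets WT_EC 1 was the highest WT_EC array for 15 and the lowest for 2, where it was highest for 42.2% and lowest for 32.2% of all genes. The median of this list was 11.72 on WT_EC 1 against 10.25 on WT_EC 2 and 10.69 on WT_EC 3. The part of these genes in the pump values was not tested.

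The embryoid bodies also had higher levels in part of that list than null_EC. Nqo1 was 8.91 ± 0.12 in null_EB and 7.19 ± 0.27 in null_EC (log2 1.72, adjusted p = 0.0442), and Blvrb, a reductase of haem breakdown, was 10.51 in null_EB and 9.19 in null_EC (log2 1.31, adjusted p = 0.000482). In all, 5 of the 20 NRF2 targets rose, 0 fell and 15 did not pass in null_EB against null_EC, where 2.9% of all genes rose and 2.5% fell, with a median of 0.46 where the median over all genes was -0.0056. In ESC against null_EB 2 rose and 11 fell, beside 21.8% and 23.0% of all genes, with Slc7a11 at 6.37 in ESC and 11.12 in null_EB (log2 -4.75, adjusted p = 0.000335). Of the same 20, 0 rose and 4 fell in null_EC against WT_EC, beside 8.12% and 5% of all genes, with Blvrb at -1.54 (adjusted p = 6.75e-05).

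**Figure D4:**
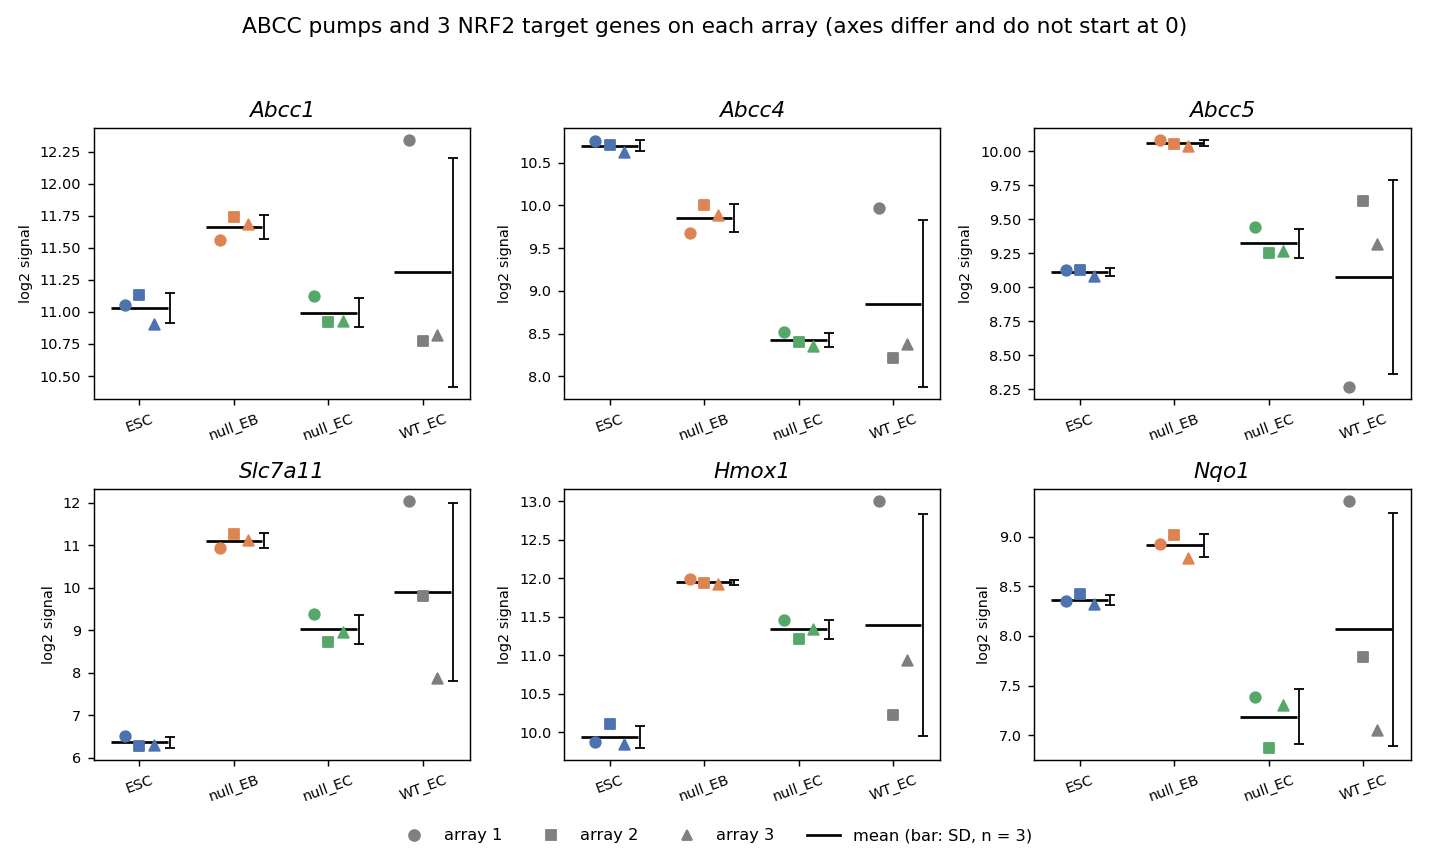
log2 signal (vertical axes, differing between panels and not starting at 0) of Abcc1, Abcc4 and Abcc5 above and of the NRF2 targets Slc7a11, Hmox1 and Nqo1 below on the arrays of ESC, null_EB, null_EC and WT_EC; symbols are arrays 1, 2 and 3, horizontal bars are means and error bars are SD (n = 3). WT_EC 1 is the highest WT_EC array in all panels but that of Abcc5, where it is the lowest.

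Abcc3, which carries glucuronides and bile salts, was higher in the wild-type endothelial cells of WT_EC than in any other group. It was 7.58, 7.37 and 7.59 in ESC, 7.68, 7.53 and 7.53 in null_EB, 7.54, 7.71 and 7.63 in null_EC, and 8.06, 8.24 and 8.46 in WT_EC. The 9 arrays of ESC, null_EB and null_EC overlapped at low signal, and all lay below the WT_EC arrays. With the housekeeping shift, ESC was called lower than null_EB in Abcc3 (log2 -0.44, adjusted p = 0.00992, against -0.066 and 0.651 without it). Relative to WT_EC, Abcc3 fell 1.54-fold in null_EC (log2 -0.62, SE 0.109, adjusted p = 0.00367), 1.60-fold in null_EB (log2 -0.67, adjusted p = 0.00187) and 1.67-fold in ESC (log2 -0.74, adjusted p = 0.000195). The null_EC difference did not pass in a fit of those 6 arrays (adjusted p = 0.0632). WT_EC 3, the highest array, also carried the most signal of immune markers, with a list median of 9.62 over 11 markers, against 7.83 on WT_EC 1 and 6.75 on WT_EC 2 and 6.83 to 6.99 in null_EC. Of these 11 markers 1 was called lower in null_EC, beside 5% of all genes, and their part in the Abcc3 values was not tested. The Abcc3 difference of null_EC from WT_EC was -0.52 without WT_EC 3 (adjusted p = 0.00644). The genes most like it were Slfn5 (r = 0.977), the carrier gene Slc10a6 (r = 0.968) and the adhesion gene Alcam (r = 0.968), each of which was likewise highest in WT_EC.

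The series compared CD47 null endothelial cells with wild-type endothelial cells, CD47 null embryoid bodies and embryonic stem cells. Of the 7 pumps, null_EC had 0 called higher than WT_EC, where 8.12% of all genes were, and 2 lower, Abcg2 and Abcc3, where 5% were. That is 2 either way beside 13.1% of all genes, and 2 pumps had arrays that did not overlap, beside 25.5%. With these 6 arrays alone, limma called 0 pumps, and 2 had an unadjusted p below 0.05.

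In null_EB against null_EC 1 was higher, Abcc4, beside 2.9% of all genes, and 2 were lower, Abcb1a and Abcb1b, beside 2.5%, which makes 3 beside 5.4% either way. The arrays of these groups did not overlap for 6 pumps, all but Abcc3, where this was so for 41.1% of all genes. Those 6 were also called in the fit without the WT_EC arrays. The share of all genes called in that fit is not given, so this count cannot be read as particular to the pumps. In null_EB against WT_EC 1 was higher, Abcc5, beside 12.3% of all genes, and 3 were lower, Abcb1a, Abcb1b and Abcc3, beside 6.19%. The 4 calls stood beside 18.5% of all genes, and 4 pumps had arrays that did not overlap, beside 28.3%.

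ESC had 3 pumps higher than null_EB, Abcb1a, Abcb1b and Abcg2, beside 21.8% of all genes, and 1 lower, Abcc5, beside 23.0%, in all 4 beside 44.8%. Arrays did not overlap for 6 of the 7, beside 67.4%. Relative to null_EC, ESC had 2 higher, Abcg2 and Abcc4, beside 22.9%, and 2 lower, Abcb1a and Abcb1b, beside 25.1%, in all 4 beside 47.9%, and arrays did not overlap for 5, beside 72.2%. Relative to WT_EC the same genes were called in the same directions and Abcc3 was lower as well. These were 2 higher beside 25.4% and 3 lower beside 21.7%, in all 5 of 7 beside 47.1%, with no overlap for 5 beside 51.5%. The counts of the ESC comparisons are near their background. The comparisons share arrays, so their calls are not independent of each other. In all, 22 of the 42 differences were called, 5 each for Abcb1a and Abcb1b, 4 for Abcg2, 3 each for Abcc3 and Abcc4, 2 for Abcc5 and 0 for Abcc1, which in limma also had 0 at an unadjusted p below 0.05.

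Setting the arrays to an equal median of 17 housekeeping genes moved all genes by -0.044 (null_EC against WT_EC), 0.18 (null_EB against null_EC), 0.14 (null_EB against WT_EC), -0.37 (ESC against null_EB), -0.19 (ESC against null_EC) and -0.23 (ESC against WT_EC) on the log2 scale. No called pump changed direction. The share of higher genes among all calls became 86.3% in place of 53.7% in null_EB against null_EC, 83.8% in place of 66.6% in null_EB against WT_EC, 17.0% in place of 48.6% in ESC against null_EB, 29.7% in place of 47.7% in ESC against null_EC and 28.3% in place of 53.9% in ESC against WT_EC.

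Other ABC genes were listed beside the pumps. Of 46 listed genes 44 were measured. In null_EB against null_EC 1 rose, Abcd4 (log2 0.38, adjusted p = 0.0103), beside 2.9% of all genes, and 42 did not pass. Beside 2.5% of all genes 1 fell, the cholesterol exporter Abca1 (10.92 ± 0.024 against 11.72 ± 0.055, log2 -0.80, adjusted p = 0.0419). The median size of the difference was 0.11 in the other ABC genes and 0.74 in the pumps, and 0.10 over all genes. These medians carry no test, the pumps were chosen with earlier results known, and 26 of the 44 had low signal in both groups. Single genes ran the other way, with the pump Abcc3 at -0.052 and Abca1 past the size of Abcg2, Abcc1 and Abcc5. The pumps had the larger median in every comparison, with 0.32 against 0.13 in null_EC against WT_EC and 1.06 against 0.25 in ESC against null_EC. Among the other ABC genes, null_EC had 4 higher and 2 lower than WT_EC, beside 8.12% and 5% of all genes. That was 13.6% called either way, beside 13.1% of all genes. Abca1 was higher at 0.84 (adjusted p = 0.0174) and Abca8a lower at -3.37 (adjusted p = 0.0172). Abca8a was at 7.53, 9.64 and 11.95 on the WT_EC arrays, a spread of over 4 on the log2 scale. In ESC against null_EB 6 rose and 13 fell, with Abcg1, an exporter of cholesterol to lipoproteins, at 9.54 ± 0.26 in ESC and 7.75 ± 0.11 in null_EB (log2 1.79, adjusted p = 0.000218) and Abca8b lower at -2.27 (adjusted p = 0.000959). That was 43.2% of the other ABC genes, close to the 44.8% of all genes. ESC also had 7 higher and 13 lower than null_EC, beside 22.9% and 25.1% of all genes. Against WT_EC it had 9 higher and 14 lower, beside 25.4% and 21.7%, and null_EB had 5 higher and 1 lower, beside 12.3% and 6.19%. The shares called either way were 45.5%, 52.3% and 13.6%, beside 47.9%, 47.1% and 18.5% of all genes.

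**Figure D5:**
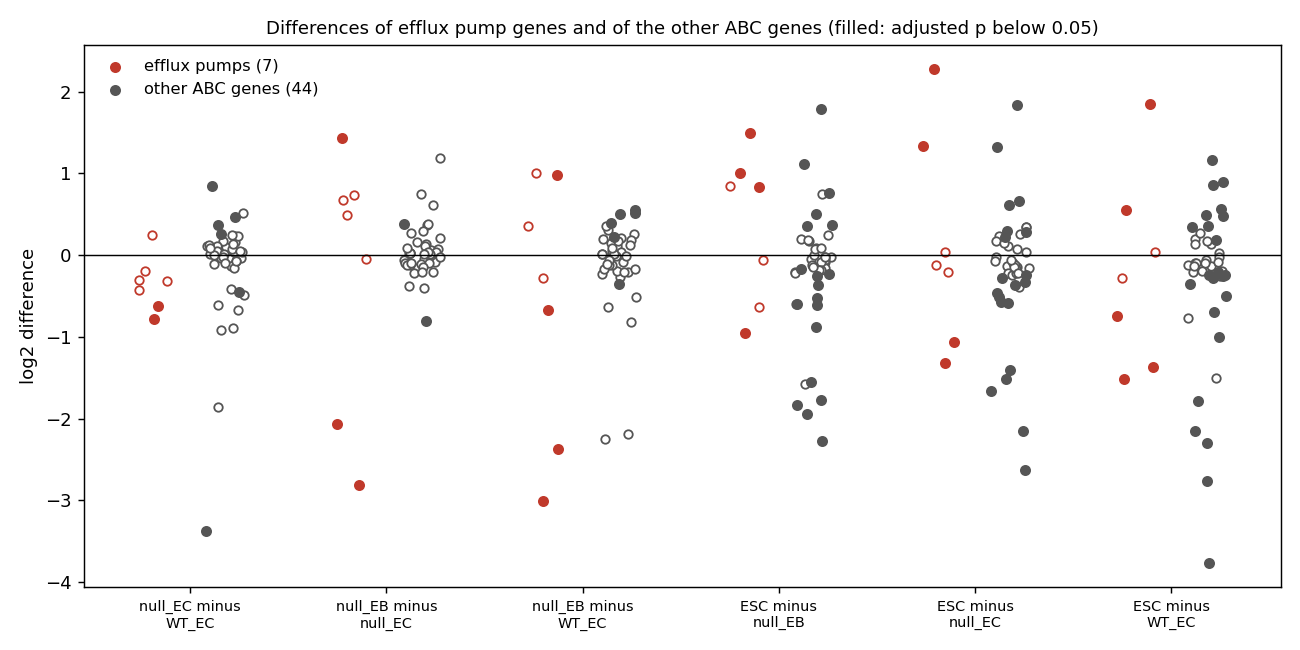
log2 differences (vertical axis) of the 7 efflux pump genes in red and the 44 other measured ABC genes in grey in the 6 comparisons (horizontal axis); filled points passed at an adjusted p below 0.05. In null_EB against null_EC most other ABC genes lie near 0 while Abcb1a and Abcb1b lie at -2.06 and -2.81.

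Genes that bring drugs into cells or alter them were listed too. Their counts stand beside the shares of all genes called higher and lower, which were 2.9% and 2.5% in null_EB against null_EC, 8.12% and 5% in null_EC against WT_EC, and 21.8% and 23.0% in ESC against null_EB. Of 32 measured drug uptake carriers 2 rose and 0 fell in null_EB against null_EC, the nucleoside carrier Slc29a1 (11.31 ± 0.11 against 9.70 ± 0.074, log2 1.62, adjusted p = 0.00221) and the thiamine carrier Slc19a2 (log2 0.93, adjusted p = 0.0247). None rose in null_EC against WT_EC and 2 fell, Slco1a4, which had low signal, and the organic anion carrier Slco3a1 (7.95 ± 0.0041 against 10.41 ± 0.72, log2 -2.47, adjusted p = 0.000177). In ESC against null_EB 11 rose and 4 fell, with the peptide carrier Slc15a2 higher at 2.47 (adjusted p = 1.83e-08) and the prostaglandin carrier Slco2a1 lower at -2.62 (adjusted p = 2.3e-06). In ESC against null_EB the 15 called carriers of 32 are near the 44.8% of all genes.

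Of 30 measured phase I enzymes, which oxidise or hydrolyse drugs, 1 rose in null_EB against null_EC, the epoxide hydrolase Ephx1 (log2 1.29, adjusted p = 2.21e-05), and 0 fell. Between null_EC and WT_EC 1 was higher in null_EC and 6 were lower, with the monooxygenase Fmo2 at -4.81 (adjusted p = 0.000574), and in ESC against null_EB 2 rose and 11 fell, with the aldehyde dehydrogenase Aldh1a1 at 6.71 in ESC and 12.77 in null_EB (log2 -6.05, adjusted p = 3.68e-07). Conjugation and glutathione genes make the conjugates that ABCC pumps export. Of 33 measured, 7 rose and 0 fell in null_EB against null_EC, including the glucuronosyltransferase Ugt2b34 (8.42 ± 0.12 against 5.96 ± 0.12, log2 2.47, adjusted p = 4.7e-07). The comparison of null_EC with WT_EC called 1 higher, Gsto2 (log2 0.93, adjusted p = 0.00785), and 2 lower, and in ESC against null_EB 6 rose and 13 fell.

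The same shares of all genes stand beside the next lists, 2.9% higher and 2.5% lower in null_EB against null_EC, 8.12% and 5% in null_EC against WT_EC, and 21.8% and 23.0% in ESC against null_EB. Of 29 measured regulators named in studies of these pumps 1 rose in null_EB against null_EC, Myc (log2 0.75, adjusted p = 0.00503), and 1 fell, Mycn (log2 -0.55, adjusted p = 0.0291). Against WT_EC, null_EC had 4 higher, with the xenobiotic receptor Ahr at 11.29 ± 0.021 in null_EC and 9.77 ± 0.73 in WT_EC (log2 1.52, adjusted p = 0.00465), and 2 lower, Myc and the bile acid receptor Nr1h4, which had low signal in both groups. In ESC against null_EB 7 rose, with Mycn at 3.05 (adjusted p = 1.03e-08), and 13 fell, with the nuclear receptor Pparg at -2.64 (adjusted p = 0.00033). The last list held genes that make, break or move natural cargo of the pumps, among them cyclic nucleotides, prostaglandins and haem. Of its 28 measured members 3 rose and 0 fell in null_EB against null_EC, with the prostaglandin synthase Ptgs2 higher at 2.07 (adjusted p = 0.0231). Between null_EC and WT_EC 4 were higher in null_EC and 3 lower, with Ptgs2 lower at -2.09 (adjusted p = 0.0106), and in ESC against null_EB 5 rose and 11 fell.

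Markers of other cells that the cultures could hold changed along with these groups. In null_EC against WT_EC 3 of 14 fibroblast and smooth muscle markers were lower, 4 of 9 mesothelial markers were higher, and of 18 endothelial markers Kdr was higher and Flt1 lower, beside 8.12% of all genes higher and 5% lower. The median of the fibroblast and smooth muscle markers ranged from 10.24 to 10.89 in null_EC and from 10.56 to 11.41 in WT_EC, and that of the mesothelial markers from 11.37 to 11.49 in null_EC and from 10.53 to 11.68 in WT_EC. In null_EB against null_EC 3 mesothelial, 1 fibroblast and smooth muscle and 1 endothelial marker were lower, beside 2.5% of all genes, and 0 of 11 immune, 0 of 10 lung epithelial and 0 of 12 pluripotency markers were called by limma. The mesothelial median ranged from 10.31 to 10.75 in null_EB and from 11.37 to 11.49 in null_EC. The part of these markers in the pump differences was not tested.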

How the data were processed

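RNA of 12 mouse cell samples, 3 in each of 4 groups taken from the sample titles, was measured on gene-level arrays. The deposited values are log2 signals that, per the submitters' processing notes, the authors made with Affymetrix Expression Console 1.2.1 and RMA. RMA removes background, gives every array the same distribution and reduces the probes of a set to a single value, so values are relative to the array and a change in total RNA is not seen. A human array is named in the labels' protocol, but the probe sets are those of the mouse gene table. No detection calls were used here, and depth does not apply to arrays, where 3 per group limit the precision.

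Of 35556 probe sets, 21789 had 1 gene, 1621 several and 12146 were not in the gene table. Those with 1 gene gave 19938 genes (the brightest probe set for the 999 genes with several). The 12 arrays went into 1 linear model with 4 group means (limma 3.58.1 in R 4.3.3, lmFit and eBayes). In each of 6 comparisons the Benjamini-Hochberg adjustment covered every gene, and genes were called below 0.05. The fit was tested on simulated data. The 7 members and the gene lists (other ABC transporters, drug uptake carriers, phase I enzymes, conjugation and glutathione, NRF2 targets, pump regulators, cargo genes, housekeeping and marker lists) were chosen with earlier results of these data known. Named beside the members are, per list and comparison, the called genes that do not overlap between groups, at most 2 per direction by size of change, of which a selection is printed, and per member the 3 genes with the highest Pearson correlation over 12 arrays. Abcb4 and marker genes are named outside this rule. Replicate numbers are shared between groups, but same-numbered arrays did not steadily deviate together, so no pairing was used in the main fit. Alternatives were a replicate block, the 6 arrays of a comparison alone, array weights, an intensity trend with robust prior, a shift to equal housekeeping medians, leaving out genes that do not reach a log2 signal of 6 on 3 arrays, the mean of a gene's probe sets, every probe set tested by itself and each array left out. A fit of the 9 arrays without WT_EC was chosen after seeing the data.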

Additional observations from a re-analysis of the deposited data

How the results depend on the processing

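Of the 42 differences (7 pumps in 6 comparisons) 22 were called, and 17 of these kept direction and call in every alternative. Over all 861 pairs of a difference and an alternative, 789 kept direction and side of the threshold, 24 lost a call, 36 gained one and 12 changed sign. No called difference changed sign.

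In null_EB against null_EC, 3 called pumps became 6 in fits of only the 6 arrays, of weighted arrays and of the 9 arrays without WT_EC, and 5 with the housekeeping shift, and ranged from 2 to 6 on leaving out 1 array, with 6 without WT_EC 1. In null_EB against WT_EC, 4 became 3 with the 6 arrays alone, 6 with array weights, 5 with the housekeeping shift and 3 to 7 on leaving out 1 array, with 7 without WT_EC 1. In null_EC against WT_EC, 2 became 0 with the 6 arrays alone and 1 to 3 on leaving out 1 array, with 1 without null_EC 3 and 3 without WT_EC 2. Leaving out WT_EC 1 or all WT_EC arrays removes their spread from the pooled error of every gene. The shares of all genes called in these fits are not given here. A rise in these counts cannot be read as particular to the pumps.

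Changes of sign occurred in Abcc1, Abcc3, Abcc4 and Abcc5. On leaving out 1 array, null_EC against WT_EC ranged from -0.59 to 0.20 in Abcc1, from -0.75 to 0.13 in Abcc4 and from -0.16 to 0.53 in Abcc5, and ESC against WT_EC from -0.55 to 0.23 in Abcc1 and from -0.37 to 0.32 in Abcc5, each with the other sign without WT_EC 1. ESC against null_EB ranged from -0.10 to 0.0079 in Abcc3 and ESC against null_EC from -0.016 to 0.10 in Abcc1, with the other sign without ESC 2. With array weights, ESC against null_EB was 0.024 in Abcc3 and ESC against WT_EC -0.11 in Abcc5. With the housekeeping shift, null_EB against null_EC was 0.13 in Abcc3, ESC against null_EC -0.16 in Abcc1 and ESC against WT_EC -0.20 in Abcc5. Beyond the WT_EC spread, the cause was not tested. With that shift the calls over all genes were 2024 in place of 1077 in null_EB against null_EC and 14676 in place of 8929 in ESC against null_EB.

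With the replicate number as a block, 2 pumps were called in null_EB against null_EC in place of 3 (Abcc4 lost, adjusted p = 0.0590), and the block changed no other call. Deviations of same-numbered arrays correlated from -0.256 to 0.225, which shows no steady pairing by number. With 3 arrays per group these correlations cannot tell whether same-numbered arrays shared a culture or batch.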
